A study of Rattus norvegicus with 9 samples.

Results

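The death machinery of the cell was followed in rat liver through 10 genes, which were the Bcl2 family members Bax, Bak1, Bid, Bbc3, Pmaip1, Bcl2l11, Bcl2l1, Mcl1 and Bcl2, and the death receptor gene Fas. Their probes were taken by the RefSeq accession that the array files give for each probe. Of the 10 genes, 9 were matched, by 14 of the 41012 probes of the array. Pmaip1 had no probe with one of its RefSeq accessions and was not analysed here. The brightest probe of a gene, by its mean over all arrays, stood for the gene, and further probes are given beside it. For 8 genes this probe was well above background on all 9 arrays and was tested, while the Bcl2 probe was well above background on none.

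Male Wistar rats were compared in 3 groups of 3, with 1 liver array per rat. Controls were not irradiated. TBI rats received 6.5 Gy of total-body irradiation from a 60Co source at 2 Gy/min. HSC + TBI rats received HSC (Hong Shan Capsule, a mixture of medicinal herbs) by stomach tube for 3 days before the same exposure. The sample labels give 30 mg/kg/day of HSC and the text of the series 10 g/kg/day, and the dose entered no calculation. All livers were taken at 24 h, the age of the rats is not given in the sources used here, and no group received HSC without irradiation. Both irradiated groups were compared with the same 3 control rats, so these comparisons are not independent of each other.

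Apoptosis can be started inside the cell or from its surface. In the intrinsic route, BH3-only proteins such as the products of Bbc3 (Puma), Pmaip1 (Noxa), Bcl2l11 (Bim) and Bid release the effectors Bax and Bak1, which open the outer membrane of mitochondria, and Bcl2, Bcl2l1 (Bcl-xL) and Mcl1 hold both kinds in check. In the extrinsic route, the ligand of the receptor Fas sets off caspase 8 through an adaptor. Bid, cut by caspase 8, joins the routes in hepatocytes, which are known for their sensitivity to Fas. The p53 protein, stabilised after DNA damage, is known to raise transcription of Bax, Bbc3, Pmaip1 and Fas.

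The values below are log2 signals after quantile normalization. A gene was called when limma gave a Benjamini-Hochberg adjusted p under 0.05 over all 25369 tested probes together with a fold change of at least 1.5. The p53 target Cdkn1a, which marks an answer to irradiation, lay between 7.98 and 8.81 in controls, between 13.44 and 14.04 in TBI rats and between 13.00 and 13.56 in HSC + TBI rats. All 8 hepatocyte markers, among them Alb and Ttr, were well above background, and none of them was called in any comparison. The share of probes above background was higher on TBI arrays (63.6% to 69.5%) than on control arrays (56.6% to 59.3%) and HSC + TBI arrays (58.7% to 60.5%). Control arrays shared 1 slide and TBI arrays another, and HSC + TBI arrays lay on 2 more. Slide and group therefore cannot be told apart between controls and TBI rats, and no slide allowed a comparison within it.

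Bax and Fas were higher in the livers of both irradiated groups, each about 2-fold, and the other 6 tested genes were called in neither comparison with controls. Of the 8 tested genes, 2 were called in TBI against control, where 7.79% of 9601 named genes on the array were called in either direction and 3.87% as higher. The same 2 genes were called in HSC + TBI against control, where the background was 3.89% in either direction and 1.18% as higher. The members were chosen with earlier results of these data known, so their counts beside the background are a description. The median log2 difference of the 8 genes was 0.19 in TBI and 0.05 in HSC + TBI, against 0.01 and 0.02 over all tested genes.

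**Figure D1:**
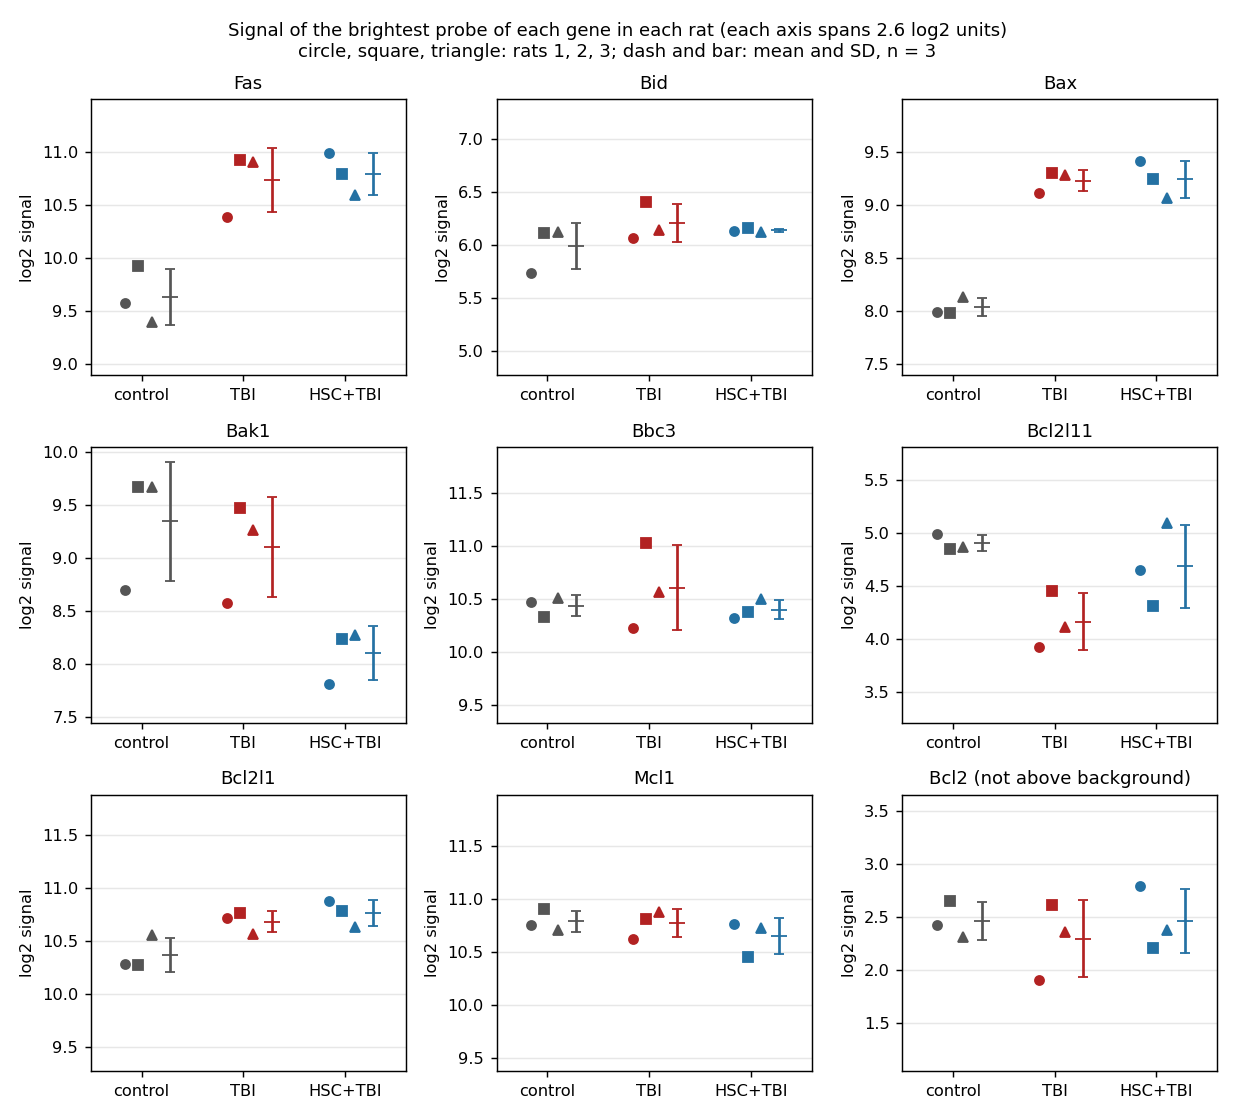
The log2 signal of the brightest probe of each gene is plotted for every rat, by group, with mean and SD beside the points. Every irradiated rat lies above every control rat for Bax and Fas, the HSC + TBI rats lie lowest for Bak1, and Bcl2 stays at background.

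Fas, the death receptor at the cell surface, had signals of 9.57, 9.92 and 9.40 in the control rats. In the TBI rats they were 10.39, 10.92 and 10.90, and in the HSC + TBI rats 10.99, 10.79 and 10.59. No irradiated rat reached down to the highest control. Fas rose 2.15-fold after TBI (log2 difference 1.11, SE 0.20, adjusted p = 0.0144) and 2.23-fold after HSC + TBI (1.16, SE 0.20, adjusted p = 0.0192). A second Fas probe, dimmer than the first, gave 6.34, 6.81 and 6.39 in controls, 7.30, 7.93 and 7.29 after TBI, and 7.91, 7.65 and 7.58 after HSC + TBI. It was called as well, with differences of 0.99 (adjusted p = 0.0260) and 1.20 (adjusted p = 0.0212), and its highest adjusted p with 1 rat left out was 0.0913 and 0.0929. The call after TBI was also lost with normexp, where the difference was 0.53, and with only the compared groups in the fit (adjusted p = 0.0642). The call of the brightest probe was lost without control 3, where its adjusted p by limma was 0.0541 for TBI and 0.0813 for HSC + TBI. For TBI this was the only loss in 9 runs with 1 rat left out, and the difference stayed between 0.99 and 1.28. In HSC + TBI the call was also lost without HSC + TBI 1 (0.0864) or HSC + TBI 2 (0.0707), while the difference stayed between 1.04 and 1.31.

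The sequence before the Fas gene is shown because Fas is the called member for which a promoter was at hand, from RefSeq on the build GRCr8 (chr1:241211905-241212204, plus strand, 250 bases before the gene start and 50 after it).

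Fas: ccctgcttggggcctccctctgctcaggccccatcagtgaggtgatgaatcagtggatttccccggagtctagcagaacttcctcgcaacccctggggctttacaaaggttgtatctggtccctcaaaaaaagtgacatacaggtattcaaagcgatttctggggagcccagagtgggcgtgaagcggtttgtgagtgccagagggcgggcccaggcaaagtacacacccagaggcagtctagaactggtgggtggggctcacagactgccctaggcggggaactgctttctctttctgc

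The p53 half-site, whose consensus reads the same on both strands, was searched as the only motif. The Fas window held no match, and neither did any of the 11 windows of the 8 member genes found in the table, while 7.98% of 33469 rat promoter windows of this length held one. Bax and Bbc3 had no entry. The absence of these letters from a short window says nothing about sites elsewhere in the gene.

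Bid, the link from death receptors to mitochondria, lay at 5.73, 6.11 and 6.12 in controls, at 6.06, 6.40 and 6.14 after TBI and at 6.13, 6.15 and 6.12 after HSC + TBI. The signals of TBI rats and controls overlapped. The differences from controls of 0.21 (95% confidence interval -0.12 to 0.54) after TBI and 0.15 (-0.18 to 0.48) after HSC + TBI did not pass the test.

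Bax, an effector that permeabilises mitochondria, showed the tightest groups of the members with a call. The control rats gave 7.998, 7.98 and 8.14, the TBI rats 9.12, 9.30 and 9.28, and the HSC + TBI rats 9.42, 9.25 and 9.07. Both irradiated groups lay about 1 log2 unit above all controls and overlapped with each other. Bax rose 2.29-fold after TBI (95% confidence interval 1.88 to 2.80, adjusted p = 0.00185) and 2.31-fold after HSC + TBI (1.89 to 2.82, adjusted p = 0.00214). Each value is the mean over 10 spots of the Bax probe. The call held when any of the 9 rats was left out, with an adjusted p of at most 0.00995 for TBI and 0.0139 for HSC + TBI.

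Bak1, the other effector, did not follow Bax. Its signals were 8.70, 9.67 and 9.67 in controls, 8.57, 9.47 and 9.26 after TBI, and 7.81, 8.23 and 8.27 after HSC + TBI. Every HSC + TBI rat lay below every rat of the other groups, and rat 1 was the lowest in each group. The difference was -0.24 (SE 0.32) for TBI against control, -1.24 (SE 0.32, adjusted p = 0.0767) for HSC + TBI against control and -0.999 (SE 0.32, adjusted p = 0.184) for HSC + TBI against TBI, so none was called. Without control 1 the second of these was -1.57 with an adjusted p of 0.0252 and would have been called.

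The NK and macrophage marker lists were lowest, as Bak1 was, in the HSC + TBI rats, with TBI 1 as an exception in the NK list. The summed signal of 7 matched markers of NK and cytotoxic cells was 1908 to 4369 in controls, 1161 to 3594 after TBI and 705 to 1264.5 after HSC + TBI. The sum over 8 macrophage and Kupffer cell markers was 88874 to 138822 in controls, 93139 to 173466 after TBI and 64963.5 to 70506 after HSC + TBI. Control 1 and TBI 1, which had the lowest Bak1 of their groups, also had the lowest sums of both lists in their groups. Among the HSC + TBI rats, rat 1 had the lowest Bak1 and the lowest macrophage sum, while rat 2 had the lowest NK sum (705). No marker of either list was below background on every array. Of these markers only Klrk1 was called, lower in HSC + TBI than in controls. Their part in the Bak1 values was not tested. In RNA of whole liver, fewer cells of a type and less RNA per cell cannot be told apart.

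**Figure D2:**
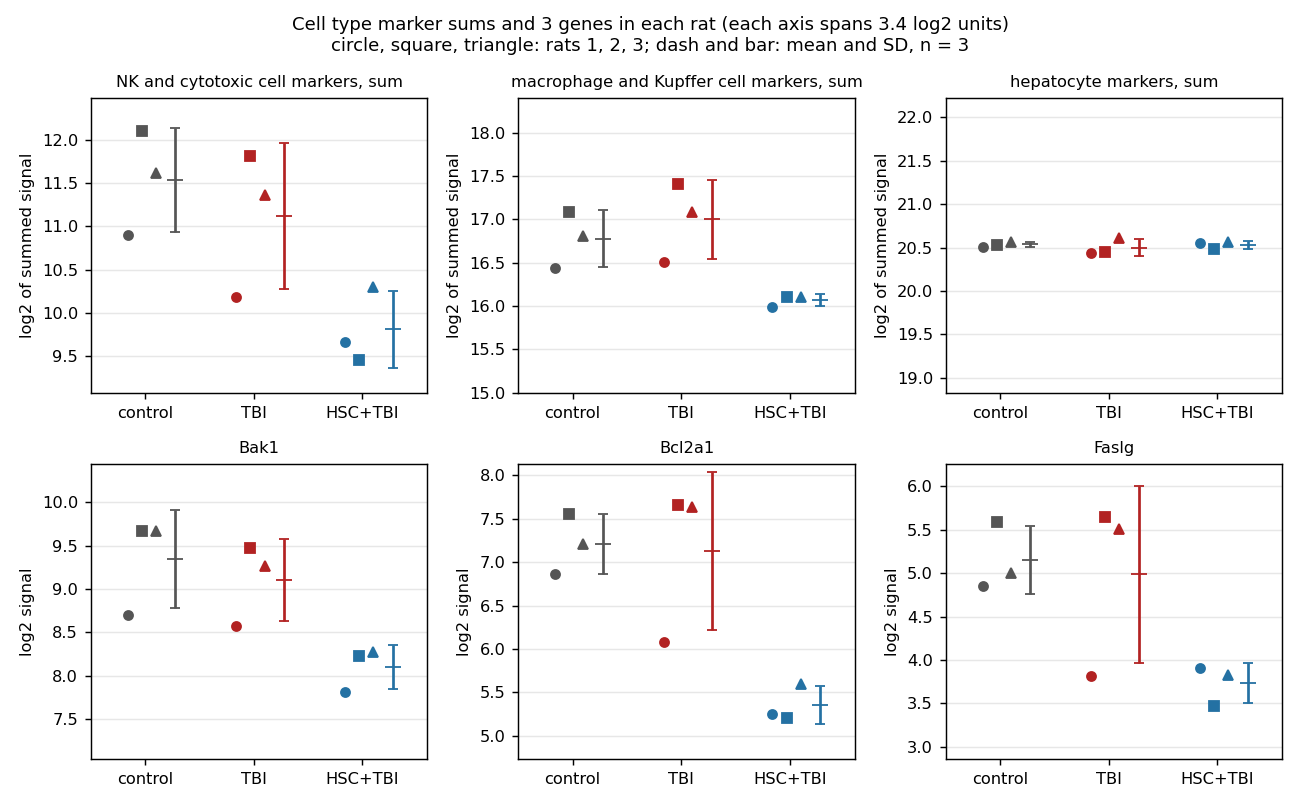
Upper panels show the log2 of summed marker signals and lower panels the log2 signals of Bak1, Bcl2a1 and Faslg, by group, with one symbol per rat and the mean and SD. The HSC + TBI rats are lowest for Bak1, Bcl2a1 and the macrophage sum, TBI 1 lies within the HSC + TBI range of the NK sum, Faslg of TBI 1 lies among the HSC + TBI rats, and the hepatocyte sum hardly varies.

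The other immune lists were at low signal. The T cell marker sum was 656 to 881 in controls, 258 to 469 after TBI and 313 to 422 after HSC + TBI, so both irradiated groups lay below all controls, and Cd3e, Cd5 and Cd28 were above background on no array. Of 5 tested T cell markers, Cd6 was called as lower in both irradiated groups. Cd3g, Cd2, the B cell marker Cd79b and the neutrophil marker Retnlg were above background on all control arrays but not on all arrays of either irradiated group. They were tested only because of the group where they are high, so their calls are not given. For 8 neutrophil markers the sums were 402 to 651, 392 to 786 and 243 to 314 in the same order of groups, lowest in the HSC + TBI rats, with Mmp8 above background on no array. Control 2 and TBI 1 had the lowest neutrophil sums of their groups, and control 1 and TBI 2 the lowest T cell sums.

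Among the BH3-only genes, Bbc3, which encodes Puma, did not follow Bax. It lay at 10.47, 10.33 and 10.51 in controls, 10.23, 11.03 and 10.56 after TBI and 10.32, 10.38 and 10.50 after HSC + TBI. TBI rats spread on both sides of the controls, and HSC + TBI rats lay within or next to the control range. The difference was 0.17 (95% confidence interval -0.26 to 0.60) after TBI and -0.04 (-0.47 to 0.40) after HSC + TBI, so the upper ends are 1.52-fold and 1.32-fold.

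Bcl2l11, which encodes Bim, was dim, with 4.99, 4.84 and 4.87 in controls, 3.92, 4.45 and 4.11 after TBI, and 4.65, 4.31 and 5.09 after HSC + TBI. All TBI rats lay below all controls, and the HSC + TBI rats overlapped with both groups. The differences of -0.74 for TBI against control (SE 0.21, adjusted p = 0.0685), -0.21 for HSC + TBI against control (adjusted p = 0.629) and 0.53 for HSC + TBI against TBI (adjusted p = 0.268) were not called. The first reached 1.67-fold, and its size depended on the background correction, falling to -0.16 with normexp. It was picked by the methods' t-test at its own threshold, and called with the slide as a random block and without HSC + TBI 3 (limma, adjusted p = 0.0463).

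Of the genes that restrain apoptosis, Bcl2l1 (Bcl-xL) was measured by 4 probes. The brightest gave 10.28, 10.27 and 10.55 in controls, 10.72, 10.76 and 10.57 after TBI, and 10.87, 10.79 and 10.63 after HSC + TBI, and every irradiated rat exceeded every control. Its differences were small, 0.31 (95% confidence interval 0.02 to 0.60, adjusted p = 0.171) and 0.39 (0.10 to 0.69, adjusted p = 0.137), and were not called. The next probe gave 6.33, 6.77 and 6.76 in controls, 7.16, 7.22 and 6.82 after TBI, and 7.29, 7.11 and 7.27 after HSC + TBI. It differed by 0.45 (adjusted p = 0.135) and 0.61 (adjusted p = 0.0894). The third differed by 0.30 (adjusted p = 0.375) and 0.53 (adjusted p = 0.195), and the fourth was above background on no array. All 3 measured probes gave positive differences in both comparisons, without a call.

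Mcl1, a short-lived guardian of hepatocytes, lay at 10.76, 10.90 and 10.71 in controls, 10.62, 10.81 and 10.88 after TBI, and 10.77, 10.45 and 10.73 after HSC + TBI. All groups overlapped. The difference was -0.02 (95% confidence interval -0.31 to 0.28) after TBI and -0.14 (-0.44 to 0.16) after HSC + TBI, and a dimmer Mcl1 probe gave 0.09 and -0.16. Bcl2 itself had signals from 1.90 to 2.80 on the 9 arrays, none well above background, so no difference is given.

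**Figure D3:**
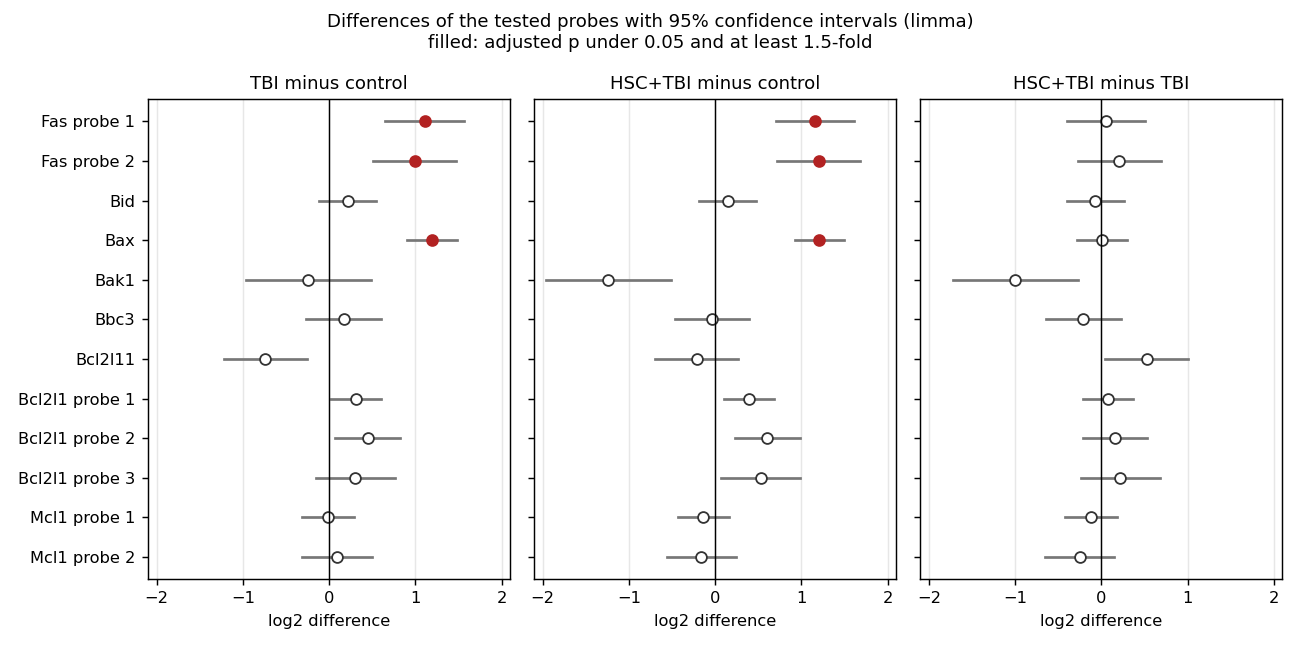
Points are log2 differences of the 12 tested member probes in each of the 3 comparisons, bars are 95% confidence intervals from limma, and filled points were called. Bax and both Fas probes are filled in both comparisons with controls, and no point is filled in HSC + TBI against TBI.

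Whether HSC changed these genes in irradiated liver was tested directly. By limma, 0 of the 8 genes were called in HSC + TBI against TBI, where 0.792% of all named genes were called. At an unadjusted p under 0.05 there were 2 of 8, Bak1 lower and Bcl2l11 higher, against 15% of all named genes. The t-test of the study's methods, at its own unadjusted threshold with the 1.5-fold minimum, picked 1, Bak1, against 3.57% of all named genes. Bax differed by 0.01 (95% confidence interval -0.28 to 0.30), which spans 0.83-fold to 1.23-fold, and Fas by 0.05 (-0.40 to 0.51), which spans 0.76-fold to 1.42-fold, or by 0.21 (-0.27 to 0.69) at its second probe. For Bbc3 the difference was -0.21 (-0.64 to 0.23), for Bid -0.07 (-0.40 to 0.26), for Bcl2l1 0.08 (-0.21 to 0.37) and for Mcl1 -0.12 (-0.42 to 0.18). The median over the 8 genes was -0.03, against 0.02 over all tested genes.

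Around these members, 59 further apoptosis genes were listed in 4 groups by their role. A probe was found for 55, and 52 were tested. Of these, 7 were called in TBI against control (6 higher, 1 lower), 9 in HSC + TBI against control (5 higher, 4 lower) and 0 in HSC + TBI against TBI, against the backgrounds of 7.79%, 3.89% and 0.792% given above. Tnfrsf21 and Bcl2l15 passed the filter on dim probes through the TBI arrays alone, so their differences are not independent of that filter, and without them the counts were 6, 9 and 0 of 50. In the last comparison 11 of 52 had an unadjusted p under 0.05 by limma, against 15% of all named genes. The methods' t-test at its own threshold picked 4 of 52, against 3.57% of all named genes. Tnfrsf21 is among the 11 and among the 4, so neither count is independent of the filter. Without TBI 1, limma called 4, namely Bcl2a1, Birc3, Dram1 and Faslg, while the share of all named genes called rose to 4.46%. Median differences were -0.01, -0.03 and -0.05.

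**Figure D4:**
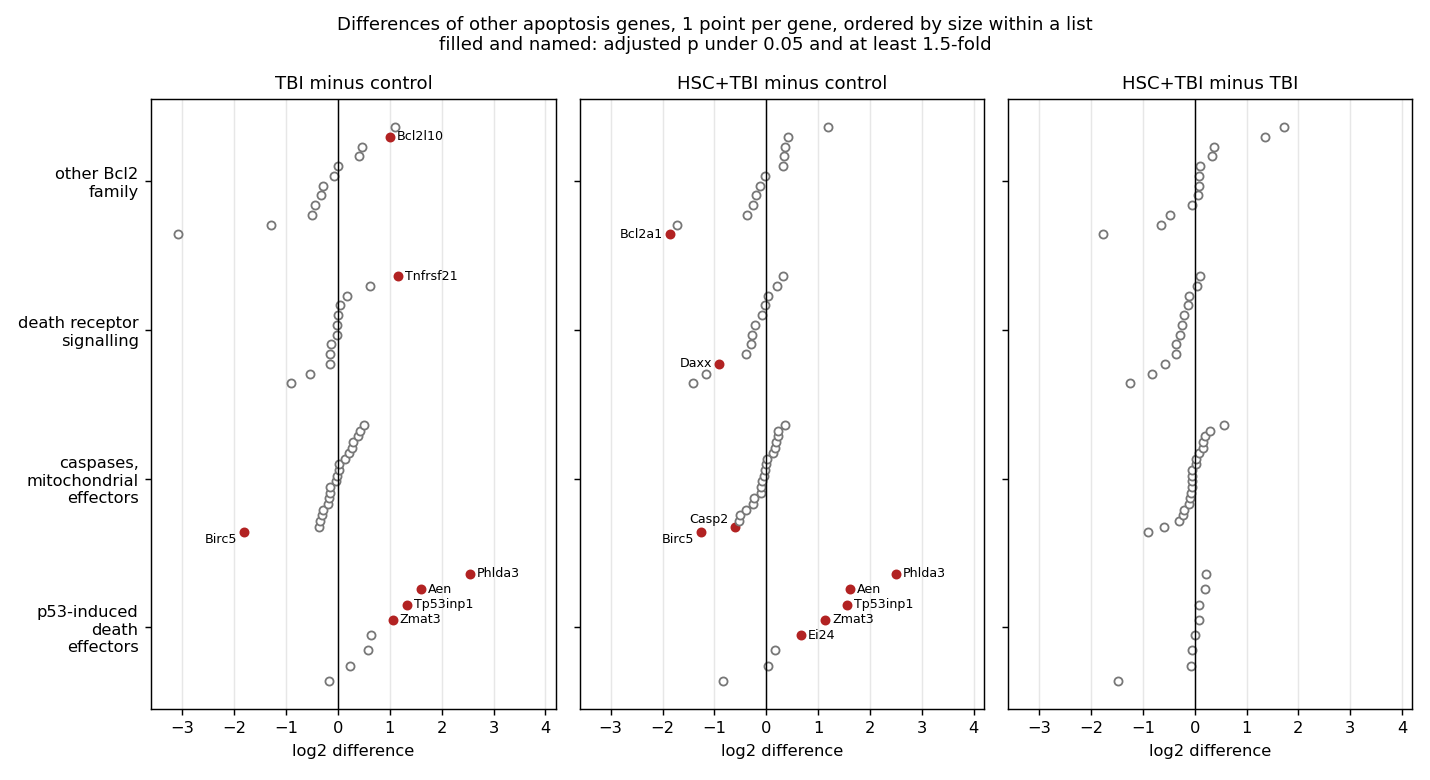
Each point is the log2 difference of 1 further apoptosis gene, ordered by size within its list, in each comparison, and called genes are filled and named. Phlda3, Aen, Tp53inp1 and Zmat3 stand to the right in both comparisons with controls, and no gene is called in HSC + TBI against TBI.

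The p53-induced death effectors held most of the higher calls. Of 8 tested genes, 4 were called after TBI and 5 after HSC + TBI, all higher, with medians of 0.85 and 0.90. Of all named genes, 3.87% and 1.18% were called as higher. The gene lists were chosen with earlier results of these data known, so these shares describe the list and test nothing. Phlda3, a p53-induced inhibitor of Akt signalling, lay at 6.19, 6.27 and 6.68 in controls, 8.88, 9.13 and 8.78 after TBI and 8.93, 8.51 and 9.21 after HSC + TBI, and rose 5.86-fold (adjusted p = 0.000492) and 5.67-fold (adjusted p = 0.000727). Aen, an apoptosis-enhancing nuclease, lay at 8.12, 8.22 and 8.14 in controls, 9.78, 9.84 and 9.68 after TBI and 9.86, 9.62 and 9.85 after HSC + TBI. It rose 3.04-fold (adjusted p = 0.000278) and 3.07-fold (adjusted p = 0.000297). No irradiated rat came within 1 log2 unit of a control for either gene. Tp53inp1, a p53 cofactor that also acts in autophagy, lay at 8.39, 8.29 and 8.12 in controls, 9.65, 9.91 and 9.25 after TBI and 9.97, 9.86 and 9.66 after HSC + TBI, and rose 2.53-fold (adjusted p = 0.00462) and 2.95-fold (adjusted p = 0.00315). Zmat3, an RNA-binding p53 target, lay at 8.72, 8.32 and 8.44 in controls, 9.52, 9.49 and 9.65 after TBI and 9.72, 9.72 and 9.45 after HSC + TBI, and rose 2.08-fold (adjusted p = 0.00453) and 2.20-fold (adjusted p = 0.00447). Both irradiated groups overlapped with each other for each of these 4 genes.

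Ei24, a p53-induced protein of the endoplasmic reticulum, gave 8.10, 7.87 and 8.003 in controls, 8.54, 8.41 and 8.74 after TBI and 8.68, 8.62 and 8.65 after HSC + TBI. All irradiated rats lay above all controls. It was called after HSC + TBI (1.58-fold, adjusted p = 0.0264) and missed the 1.5-fold minimum after TBI (1.49-fold, adjusted p = 0.0266). Perp, a membrane protein of cell junctions and the brightest of the list, differed by -0.16 and 0.04. Dram1, an autophagy gene, lay at 5.38, 6.41 and 6.14 in controls, 5.97, 6.90 and 6.97 after TBI and 4.93, 5.05 and 5.43 after HSC + TBI. Its difference of -1.48 for HSC + TBI against TBI (adjusted p = 0.0937) was not called, and it was lowest in rat 1 of the controls and of the TBI rats, as the NK and macrophage marker sums were.

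Promoter windows of Aen (chr1:142224283-142224582, plus strand) and Ei24 (chr8:44699322-44699621, minus strand) on GRCr8 are shown because both genes were called and hold a match to the p53 half-site, in capitals. Each is read along the gene, 5′ to 3′.

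Aen: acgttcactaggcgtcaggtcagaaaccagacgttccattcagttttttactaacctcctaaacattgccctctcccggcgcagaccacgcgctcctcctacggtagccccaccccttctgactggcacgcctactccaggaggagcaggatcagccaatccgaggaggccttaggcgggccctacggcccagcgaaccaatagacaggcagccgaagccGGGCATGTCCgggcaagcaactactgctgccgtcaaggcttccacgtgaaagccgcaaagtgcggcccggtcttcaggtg

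Ei24: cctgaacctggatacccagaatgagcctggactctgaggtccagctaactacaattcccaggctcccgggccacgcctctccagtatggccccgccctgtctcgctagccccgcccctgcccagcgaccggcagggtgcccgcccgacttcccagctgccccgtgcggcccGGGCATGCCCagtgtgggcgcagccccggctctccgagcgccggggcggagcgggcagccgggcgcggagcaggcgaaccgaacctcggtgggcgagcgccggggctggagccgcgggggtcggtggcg

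The match of Aen, GGGCATGTCC, began 30 bases before the gene start and that of Ei24, GGGCATGCCC, 79 bases before it. Of 45 further apoptosis genes with a window, 4 held a match (8.89%, against 7.98% of all windows), the other two being Pidd1 and Cflar, which were not called. The window of Phlda3, with the largest rise of the list, held none. Tp53inp1 and Zmat3 had no entry. A match is a description of the letters and not of binding.

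In the rest of the Bcl2 family, 1 of 12 tested genes (8.33%) was called in each comparison with controls. Of all named genes, 7.79% were called after TBI and 3.89% after HSC + TBI. Bcl2l10, a family member with both survival and death roles described, gave 4.71, 4.86 and 4.89 in controls, 6.003, 5.73 and 5.75 after TBI and 4.91, 5.43 and 5.22 after HSC + TBI. It rose 2.01-fold after TBI (adjusted p = 0.00782), while its 1.29-fold difference after HSC + TBI was not called (adjusted p = 0.239). The difference between the irradiated groups, -0.64, was not called either (adjusted p = 0.107), so the groups were not shown to differ. Bcl2l10 was dim, and with normexp background correction its difference after TBI was 0.31 and the call was lost.

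Bcl2a1, a survival gene of leukocytes, gave 6.86, 7.55 and 7.21 in controls, 6.07, 7.66 and 7.64 after TBI and 5.25, 5.20 and 5.60 after HSC + TBI. It fell 3.62-fold in HSC + TBI against control (log2 difference -1.85, adjusted p = 0.0458), and its -1.78 against TBI was not called (adjusted p = 0.0953). The call was lost with normexp and with no filter on dim probes, and over all settings the difference ran from -2.03 to -0.79. The HSC + TBI rats were also the lowest in the sums of NK and macrophage markers given above, except that the NK sum of TBI 1 (1161) lay below that of HSC + TBI 3 (1264.5). The part of these cells in the Bcl2a1 values was not tested. Bnip3l, a mitophagy receptor and the brightest of this list, differed by -0.29 and -0.20 from controls without a call.

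Of 12 tested genes of death receptor signalling, 1 (8.33%) was called in each comparison with controls, Tnfrsf21 after TBI and Daxx after HSC + TBI. The shares of all named genes called were 7.79% and 3.89%. Tnfrsf21, which encodes death receptor 6, was not well above background on any control or HSC + TBI array and was so on all TBI arrays. It was tested only because of the group where it is high, so its call supports nothing, and without it 0 of 11 genes were called after TBI. With the main processing it was at least 1.43-fold higher after TBI than in controls (measured means 4.37 and 3.21, limma, adjusted p = 0.0221). Over 20 other settings its log2 difference ran from 0.12 to 1.32, so the bound does not hold under all of them. The call was lost with normexp background correction, with only the compared groups in the fit, and without control 1 or TBI 2. Daxx, a Fas-binding and chromatin protein, gave 9.86, 10.46 and 10.42 in controls, 9.61, 9.87 and 9.67 after TBI and 9.39, 9.23 and 9.42 after HSC + TBI. It fell 1.87-fold after HSC + TBI (adjusted p = 0.0309), and its difference of -0.53 after TBI was not called (adjusted p = 0.0979).

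No gene of a ligand on this list was called. Faslg, the ligand of Fas made by cytotoxic lymphocytes, gave 4.85, 5.59 and 5.002 in controls, 3.81, 5.65 and 5.51 after TBI and 3.91, 3.47 and 3.83 after HSC + TBI. The differences were -0.16 after TBI and -1.42 after HSC + TBI (adjusted p = 0.132), and neither was called. Faslg was well above background on only 1 of 3 HSC + TBI arrays. Over 20 other settings the second difference ran from -1.56 to -0.29 and was called in 4. TBI 1, with the lowest Faslg of its group, had the lowest NK marker sum of its group, and the part of these cells was not tested. Tnfsf10, which encodes the ligand Trail, differed by -0.91 and -1.16 without a call (adjusted p = 0.242 and 0.199). Tnfrsf1a, the main receptor for TNF and the brightest of the list, differed by 0.18 and 0.21.

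Among caspases and mitochondrial effectors, 1 of 20 tested genes was called after TBI and 2 after HSC + TBI, all lower. These are 5% and 10%, against 7.79% and 3.89% of all named genes called in either direction. Birc5 (survivin), an inhibitor of apoptosis that dividing cells need for mitosis, gave 7.55, 8.48 and 8.13 in controls, 6.32, 6.27 and 6.12 after TBI and 6.28, 7.05 and 7.05 after HSC + TBI. It fell 3.53-fold after TBI (adjusted p = 0.00728) and 2.39-fold after HSC + TBI (adjusted p = 0.0458). Casp2, a caspase tied to DNA damage, gave 10.10, 10.27 and 10.12 in controls, 9.85, 9.85 and 9.68 after TBI and 9.66, 9.58 and 9.47 after HSC + TBI. It fell 1.51-fold after HSC + TBI (adjusted p = 0.0292), just past the minimum, and was not called with the 75th percentile scaling or normexp. Its differences of -0.37 after TBI (limma, adjusted p = 0.0820) and -0.23 for HSC + TBI against TBI (adjusted p = 0.367) were not called. Pidd1, which activates Casp2 and is a p53 target, differed by 0.51 and -0.09, Cycs (cytochrome c), the brightest of the list, by 0.42 and 0.36, and Birc3, an inhibitor of apoptosis in NF-kB signalling, by 0.39 and -0.52, all without a call.

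The calls of HSC + TBI against control for Bcl2a1, Daxx, Casp2, Birc5 and Ei24 did not hold in every run with 1 rat left out. When control 2, control 3, HSC + TBI 1, HSC + TBI 2 or HSC + TBI 3 was left out, 4 of the 9 genes were called, and each time they were Aen, Phlda3, Tp53inp1 and Zmat3. In these runs 1.53% to 2.36% of all named genes were called, against 3.89% with all rats. In HSC + TBI against control, Birc5 also lost its call without any 1 of the TBI rats, and Bcl2a1 without control 1 or TBI 2. Calls in this comparison were lost under other settings too. Birc5 and Daxx lost theirs with no filter on dim probes, Birc5 with only the compared groups in the fit, and Ei24 with normexp.

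The genes most like Bax over the 9 arrays were Actrt3 (Pearson's r = 0.992), an actin-related gene not above background in controls, and Cdkn1a (0.989). They were ranked among 9595 tested named genes, from which the members were then set aside. Most like Fas were Gsta4 (0.980), a glutathione transferase, and the ribosomal gene Rpl6 (0.977), although their own differences from controls were small, 0.28 and 0.19 after TBI, and were not called. Bax and Fas themselves had r = 0.946. These values describe 9 points from the same arrays that fall into controls and irradiated rats, and r takes no account of the size of a change.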

How the data were processed

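Spot intensity was extracted by the authors with Agilent Feature Extraction 10.7.3.1, per the file headers, as a processed signal with its background removed and as flags of spot quality. In addition, the authors deposited log2 values normalized by quantiles, 1 per probe and array, used here as an alternative (median absolute difference 0.03 on each array).

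Processed signals were floored at 1, put on the log2 scale without control spots and outlier flags (84 to 115 of 43379 spots per array), normalized by quantiles and averaged per probe with limma 3.58.1 in R 4.3.3. A probe was above background when over 0.5 of its spots carried the flag, and was tested when it was so on all 3 arrays of at least 1 group. Genes were named by RefSeq accession from GRCr8, used for names and promoter sequences only, since the arrays' own coordinates are of another build. Comparisons came from 1 limma fit of 3 group means. The 3 rats per group limit the precision, for which the smallest two-sided p of an exact permutation test is 0.1. The p-values of limma set a difference against the spread between rats within groups, moderated over all tested probes. Controls and TBI rats lay on 1 slide per group, so spread between slides among these rats did not enter their comparison. The error shared by all comparisons also includes the HSC + TBI arrays, which lay on more than 1 slide. In data simulated for TBI against control on 25369 probes, limma called 74% of 3-fold and 35% of 1.8-fold changes.

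The members and the gene lists were chosen with earlier results of these data known. Named genes are all members, every called gene of the 4 apoptosis lists, the brightest and the largest uncalled gene of each list and comparison, the 2 genes most like each called member, and Cdkn1a. Further markers and genes are named where a count or a caveat needs them. For a gene dim in a whole group, the fold is a bound against the lowest signal above background on those arrays. The alternatives were another scaling (75th percentile), normexp with an offset of 50, the authors' values, other filters, kept outlier spots, fits without the uninvolved group, the methods' t-test with and without adjustment, no fold minimum, any probe of a gene, replicate and slide blocks, and each of the 9 rats left out.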

Additional observations from a re-analysis of the deposited data

How the results depend on the processing

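The counts of called genes were recomputed under 22 other settings. The methods' t-test with adjusted p gave 0 in every count, for members and for the other apoptosis genes, in both comparisons with controls. That setting called 0.0312% of all named genes in TBI against control and 0.0104% in HSC + TBI against control, so it called almost nothing on the array. With unadjusted p it gave 1 member (Bak1) and 4 other genes in HSC + TBI against TBI, where limma gave 0. Tnfrsf21, which passed the filter on dim probes through the TBI arrays alone, was among these 4. Of all named genes, 3.57% were picked there. With the slide as a random block, 13 other genes were called in TBI against control, where the share of all named genes rose from 7.79% to 17.6%. In HSC + TBI against TBI, 1 member and 8 other genes were called, where the share rose from 0.792% to 9.09%. Tnfrsf21 was among the 13 and among the 8. The correlation within slides in that fit was -0.33 and rests on the HSC + TBI group, the one with arrays on 2 slides. Leaving out each rat gave 1 to 3 members in TBI against control, 1 to 3 in HSC + TBI against control and 0 in HSC + TBI against TBI, and 7 to 9, 4 to 9 and 0 to 4 other genes. The 4 came without TBI 1, where 4.46% of all named genes were called. Over the runs with 1 rat left out, that share ran from 3.95% to 10.2%, 1.53% to 4.89% and 0.195% to 4.46% in the same order of comparisons. Whether the replicate numbers pair the rats was not settled. The r of deviations of same-numbered rats in different groups ran from -0.14 to 0.19, over 0.1 in 2 of 9 pairs. For rats of different numbers it ran from -0.12 to 0.14, over 0.1 in 2 of 18 pairs. Same-numbered control and TBI rats had 0.19, 0.12 and 0.098, and same-numbered TBI and HSC + TBI rats -0.14, -0.02 and -0.03. With the replicate number as a block, the counts of members were 2, 3 (Bak1 added) and 0 in the same order of comparisons, and those of other genes 7, 9 and 0. The shares of all named genes called with that block were 6.75%, 3.92% and 0.448%. Over the tested member probes and all settings, 725 differences kept their side of the threshold, 20 lost a call and 11 gained one. The sign changed in 15 of these 756 differences, none of them with a call on either side. Dim probes limit Bcl2, Bcl2l11, Bcl2l10, Tnfrsf21, Faslg and Hrk.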

Other observations

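Bad, a BH3-only gene, had the largest difference of the listed genes that was not called. Its brightest probe gave 8.22, 8.09 and 9.16 in controls, 3.52, 4.33 and 8.37 after TBI and 8.23, 3.85 and 8.21 after HSC + TBI. In TBI 1, TBI 2 and HSC + TBI 2 it lay far below the other 6 rats. A second Bad probe gave 6.47, 6.45 and 7.04 in controls, 5.43, 5.74 and 6.59 after TBI and 6.62, 5.41 and 6.52 after HSC + TBI. It was lowest in the same 3 rats, over a narrower range. The difference after TBI at the brightest probe was -3.08 with an SE of 1.45 (limma, adjusted p = 0.226).

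Hrk, another BH3-only gene, had the largest positive difference of HSC + TBI against TBI among the listed Bcl2 family genes. It gave 5.43, 2.92 and 4.58 after TBI and 5.96, 6.41 and 5.70 after HSC + TBI, a difference of 1.71 (limma, adjusted p = 0.276), while its controls ran from 4.86 to 6.94. Hrk was chosen after its values were seen. Its brightest probe was well above background on only 2 of 3 TBI arrays. A second, dimmer Hrk probe was not tested.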
